A study of Mus musculus with 11 samples.

Results

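The smooth muscle contractile genes described here are 10 genes, Acta2, Actg2, Tagln, Cnn1, Smtn, Lmod1, Myh11, Mylk, Des and Pcp4, of 19944 genes measured in mouse rectal mucosa. A transcript cluster, the probe set that reads a gene on the array, was taken where the platform annotation gives exactly that symbol. Each of the 10 genes had 1 cluster, so no choice between clusters was needed, and all 10 are reported, with no filter on dim genes. The set was chosen for what the genes encode, with earlier results of these data known.

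The study measured 11 mice, 1 Affymetrix Mouse Gene 1.0 ST array per animal. There were 4 mutant mice of the α6ΔIEC-TAM line given tamoxifen, 4 mutant mice of that line given NaCl in its place, and 3 wild-type control mice given tamoxifen. In the mutant line tamoxifen is meant to delete Itga6, the gene of integrin α6, in intestinal epithelial cells, and not in muscle. What drives the recombinase is not given in the sources used here. All animals were 10 weeks old, gavage at 10 mg per day on alternate days over 5 days began at 8 weeks, and the rectum was sampled at 15 days from the first dose. Males were 1 of 4 mice in each mutant group and 2 of 3 control mice. The male was replicate 3 in mutant tamoxifen and replicate 4 in mutant NaCl, and the female control was replicate 2. Replicate numbers name an array and have no order.

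Smooth muscle shortens when calcium binds calmodulin and activates myosin light chain kinase, which phosphorylates the light chains of smooth muscle myosin so that its heads pull on actin filaments. Actin-binding proteins set the length, stability and calcium response of the thin filaments, and desmin filaments link the contractile units to dense bodies and to each other. In the large bowel such cells form a thin muscle layer at the base of the mucosa, the main muscle coat beneath the submucosa, and the walls of vessels. The genes are switched on largely by serum response factor (SRF), which binds a DNA element called the CArG box, with myocardin as its partner.

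The values are log2 levels made by the authors with RMA, a standard background correction, normalisation and probe summary, and ran from 3.73 to 14.42 over the table. Medians of the arrays were 7.29 to 7.35. Itga6, the targeted gene, was higher, not lower, in mutant tamoxifen than in control (limma, log2 difference 0.42, adjusted p = 0.00949) and than in mutant NaCl (0.41, adjusted p = 0.0053). It read 11.75, 11.93, 11.84 and 11.77 in the arrays labelled mutant tamoxifen, 11.39, 11.28, 11.49 and 11.47 in mutant NaCl and 11.15, 11.52 and 11.49 in control tamoxifen, so mutant tamoxifen overlapped neither group. Of all genes, 17.3% lay apart and higher against control and 14.2% against mutant NaCl. The position of the Itga6 probes against the deleted exons is unknown, so Itga6 does not check the labels. Every direction below follows the labels as given. Differences were tested with limma over all 19944 genes, with a term for sex and Benjamini-Hochberg adjustment, and a gene was called at an adjusted p under 0.05. The p-values reflect variation among these 11 mice, and that small number limits the precision.

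The 10 genes moved together, as described below, and the 250 bases before the start of each were searched for the CArG box on both strands. RefSeq promoter sequence of the build GRCm38.p6 was matched by symbol for 7 of the 10 genes, and Actg2, Tagln and Myh11 had no entry. The exact box was in 0 of the 7 windows, and it was in 1.47% of all 32851 promoter windows of that length. Letting 1 of the 10 positions differ, a match was in 3 of the 7 windows, Acta2, Lmod1 and Pcp4, and in 18.6% of all windows. This looser search was added after the exact one found none. The 3 windows are shown because they hold the matches, which are in capitals, 5′ to 3′ on the strand of the gene.
Acta2 (chr19:34255374-34255623, minus strand): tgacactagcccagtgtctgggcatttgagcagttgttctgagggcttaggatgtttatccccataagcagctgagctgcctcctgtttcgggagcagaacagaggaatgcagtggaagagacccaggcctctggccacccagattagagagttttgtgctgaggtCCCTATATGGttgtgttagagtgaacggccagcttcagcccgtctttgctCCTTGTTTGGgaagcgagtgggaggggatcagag
Lmod1 (chr1:135324563-135324812, plus strand): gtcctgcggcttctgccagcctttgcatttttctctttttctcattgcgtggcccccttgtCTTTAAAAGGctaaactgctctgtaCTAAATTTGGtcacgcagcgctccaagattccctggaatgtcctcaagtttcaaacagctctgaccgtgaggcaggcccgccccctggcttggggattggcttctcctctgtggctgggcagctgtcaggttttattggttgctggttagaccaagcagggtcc
Pcp4 (chr16:96467356-96467605, plus strand): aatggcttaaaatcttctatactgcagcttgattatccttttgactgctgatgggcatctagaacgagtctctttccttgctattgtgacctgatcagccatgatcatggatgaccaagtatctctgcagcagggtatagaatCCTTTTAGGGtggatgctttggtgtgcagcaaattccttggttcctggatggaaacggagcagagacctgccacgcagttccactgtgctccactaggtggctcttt
In Acta2 the matches begin 84 and 34 bases before the annotated start, in Lmod1 189 and 164 bases, and in Pcp4 107 bases. A match describes the letters of the window and was not tested for binding. Of the 10 genes, Acta2 had the smallest and Pcp4 the largest difference from control.

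Mutant and control mice that had both received tamoxifen were compared first, which asks what goes with the genotype under 1 drug. All 10 smooth muscle contractile genes were lower in the arrays labelled mutant tamoxifen and passed the threshold, where 11.8% of all genes were called lower and 24.6% in either direction. Pcp4, a calmodulin-binding protein, was 1.85-fold lower, and the other 9 were 1.18-fold (Acta2) to 1.44-fold (Tagln) lower. The median log2 difference of the 10 genes was -0.49, against -0.02 over all genes tested. In each of the 10 genes every mutant tamoxifen array lay below every control array, a pattern that 20.1% of all genes showed, while 17.3% lay apart in the higher direction. The mean log2 level of the 10 genes was 11.67, 11.57, 11.60 and 11.69 in the arrays labelled mutant tamoxifen, 11.97, 12.09, 12.13 and 12.23 in mutant NaCl and 12.20, 12.11 and 12.11 in control tamoxifen. In this bulk tissue fewer muscle cells, less muscle taken with the sample and less RNA per muscle cell cannot be told apart.

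**Figure D1:**
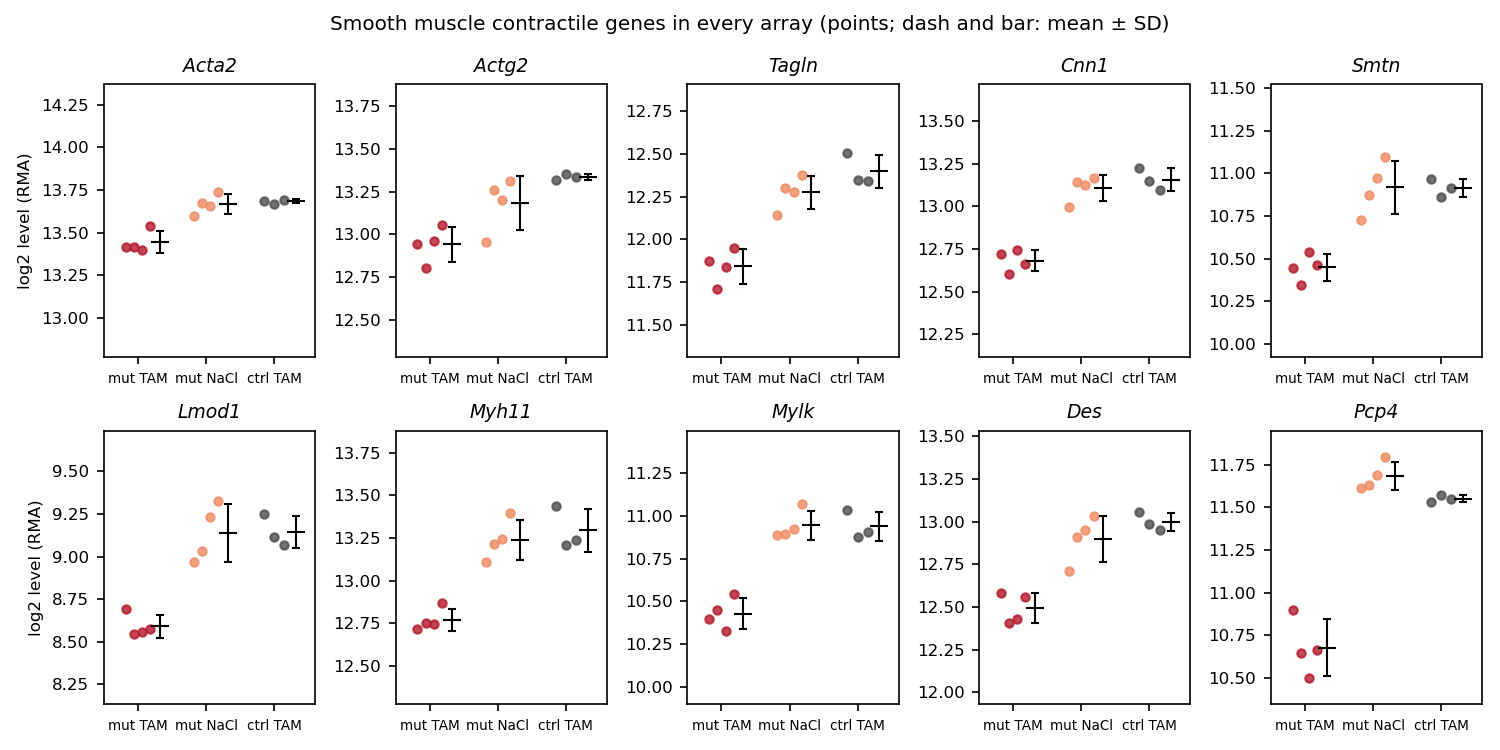
Log2 level (RMA) of each of the 10 genes in every array, with mutant tamoxifen (n = 4), mutant NaCl (n = 4) and control tamoxifen (n = 3) from left to right; points are arrays, and the dash and bar are the mean ± SD. Every panel spans the same number of log2 units. The mutant tamoxifen points lie below all others in every gene but Actg2, where 1 mutant NaCl array falls among them.

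Of the actins, Acta2 (Entrez Gene 11475), which encodes smooth muscle α-actin, read 13.41, 13.42, 13.40 and 13.54 (log2 level) in mutant tamoxifen, against 13.69, 13.67 and 13.69 in control tamoxifen. Values of mutant NaCl were 13.60, 13.67, 13.66 and 13.74. The mutant tamoxifen arrays were the lowest of all 11, and replicate 4 stood nearest the others. Acta2 was 1.18-fold lower than in control tamoxifen (limma, log2 difference -0.23, SE 0.0459, adjusted p = 0.00497), and the interval at 95% confidence ran from -0.33 to -0.13. Actg2 (Entrez Gene 11468), the γ-actin of visceral smooth muscle, read 12.95, 12.80, 12.96 and 13.05 (log2 level) in mutant tamoxifen, against 13.32, 13.35 and 13.34 in control tamoxifen. Those of mutant NaCl read 12.95, 13.26, 13.20 and 13.31. The mutant tamoxifen and control arrays did not overlap, but mutant NaCl replicate 1 lay among the mutant tamoxifen arrays. The difference from control was 1.29-fold (limma, log2 difference -0.37, SE 0.0838, adjusted p = 0.0102). Without mutant tamoxifen replicate 3 or control replicate 2 it was -0.35 or -0.31 and not past the threshold (limma, adjusted p = 0.0626 or 0.0903). Probes of the related actins may share sequence, and how far they cross-read was not tested.

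Among the actin-binding proteins, Tagln (Entrez Gene 21345), or transgelin, read 11.87, 11.71, 11.83 and 11.95 (log2 level) in mutant tamoxifen, against 12.51, 12.35 and 12.34 in control tamoxifen. The mutant NaCl arrays gave 12.14, 12.30, 12.28 and 12.37. All 4 mutant tamoxifen arrays lay below the 7 others. Tagln was 1.44-fold lower than in control (limma, log2 difference -0.53, SE 0.0728, adjusted p = 0.000881). Cnn1 (Entrez Gene 12797), or calponin, which slows the actin-activated ATPase of myosin, read 12.72, 12.60, 12.74 and 12.66 (log2 level) in mutant tamoxifen, against 13.23, 13.15 and 13.09 in control tamoxifen. Values of mutant NaCl were 12.99, 13.14, 13.13 and 13.17. The groups were again apart, with a small spread in each, and Cnn1 was 1.37-fold lower than in control (limma, log2 difference -0.45, SE 0.0528, adjusted p = 0.000414).

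Smoothelin and leiomodin were lower in mutant tamoxifen as well. Smtn (Entrez Gene 29856), which encodes smoothelin, found in contractile smooth muscle cells, read 10.45, 10.35, 10.54 and 10.46 (log2 level) in mutant tamoxifen, against 10.97, 10.86 and 10.91 in control tamoxifen. Those of mutant NaCl read 10.73, 10.88, 10.97 and 11.10. It was 1.32-fold lower than in control (limma, log2 difference -0.40, SE 0.0679, adjusted p = 0.00224). Lmod1 (Entrez Gene 93689), or leiomodin, which nucleates actin filaments in smooth muscle, read 8.69, 8.54, 8.56 and 8.57 (log2 level) in mutant tamoxifen, against 9.25, 9.12 and 9.07 in control tamoxifen. The mutant NaCl arrays gave 8.97, 9.03, 9.23 and 9.33. It was 1.43-fold lower than in control (limma, log2 difference -0.52, SE 0.0918, adjusted p = 0.0029). In both genes the mutant tamoxifen arrays were below all others, and the mutant NaCl arrays were more spread out than the control arrays (SD 0.155 against 0.0527 for Smtn and 0.169 against 0.094 for Lmod1).

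The motor and its kinase were lower to a like degree. Myh11 (Entrez Gene 17880), the smooth muscle myosin heavy chain, read 12.72, 12.75, 12.75 and 12.87 (log2 level) in mutant tamoxifen, against 13.44, 13.21 and 13.24 in control tamoxifen. Values of mutant NaCl were 13.11, 13.21, 13.24 and 13.39. It was 1.4-fold lower than in control (limma, log2 difference -0.48, SE 0.0697, adjusted p = 0.00111), with control replicate 1 the highest array. Mylk (Entrez Gene 107589), the kinase that phosphorylates the myosin light chains, read 10.40, 10.45, 10.32 and 10.54 (log2 level) in mutant tamoxifen, against 11.03, 10.88 and 10.90 in control tamoxifen. Those of mutant NaCl read 10.89, 10.90, 10.93 and 11.07. It was 1.41-fold lower than in control (limma, log2 difference -0.49, SE 0.0722, adjusted p = 0.00116). Neither gene had an overlap between mutant tamoxifen and the other groups. Mylk also has forms made outside smooth muscle, which 1 cluster over the whole gene does not separate.

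Desmin and Pcp4 complete the set. Des (Entrez Gene 13346), the muscle intermediate filament protein, read 12.58, 12.40, 12.43 and 12.56 (log2 level) in mutant tamoxifen, against 13.06, 12.99 and 12.95 in control tamoxifen. The mutant NaCl arrays gave 12.71, 12.91, 12.95 and 13.03. Des was 1.4-fold lower than in control (limma, log2 difference -0.49, SE 0.0778, adjusted p = 0.00172), with mutant NaCl replicate 1 the lowest array outside mutant tamoxifen. Pcp4 (Entrez Gene 18546), a small protein that speeds calcium exchange of calmodulin, read 10.90, 10.64, 10.50 and 10.67 (log2 level) in mutant tamoxifen, against 11.53, 11.57 and 11.55 in control tamoxifen. Values of mutant NaCl were 11.61, 11.63, 11.69 and 11.80. The mutant tamoxifen arrays lay well below both other groups. Pcp4 was 1.85-fold lower than in control (limma, log2 difference -0.89, SE 0.0877, adjusted p = 0.000166), and the interval at 95% confidence ran from -1.08 to -0.70. Enteric neurons also express Pcp4, and neuron markers were lower in the same arrays, as given below; their part in the result was not tested.

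Within the mutant genotype, tamoxifen against NaCl gavage asks what goes with the drug and the deletion it is meant to induce. All 10 genes were lower in the arrays labelled mutant tamoxifen and past the threshold, where 10.7% of all genes were called lower and 23.2% in either direction. In 9 of the 10 the arrays did not overlap (12.6% of all genes lay apart and lower, 14.2% apart and higher), the exception being Actg2. The median log2 difference was -0.45, against -0.01 over all genes. This comparison uses the same mutant tamoxifen arrays as the one against control, so it is not independent of it. Pcp4 was 2.01-fold lower (limma, log2 difference -1.01, SE 0.0761, adjusted p = 2.72e-05), which is the largest difference of the 10. Lmod1 (-0.55), Mylk (-0.52), Myh11 (-0.47) and Smtn (-0.47) followed, then Tagln (-0.43), Cnn1 (-0.43) and Des (-0.41), as log2 differences, with adjusted p of 0.000189 to 0.00207 from limma. The actins moved least. Acta2 was 1.17-fold lower (limma, log2 difference -0.22, SE 0.0398, adjusted p = 0.00288) and Actg2 1.18-fold lower (limma, log2 difference -0.24, SE 0.0728, adjusted p = 0.0363). Actg2 lost its call in 12 of 25 other settings, among them leaving out mutant tamoxifen replicate 1, 2 or 3, mutant NaCl replicate 2, 3 or 4, or control replicate 3 (log2 differences -0.25 to -0.20), and the female arrays alone. Over all 25 settings its adjusted p from limma was 0.0047 to 0.175.

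**Figure D2:**
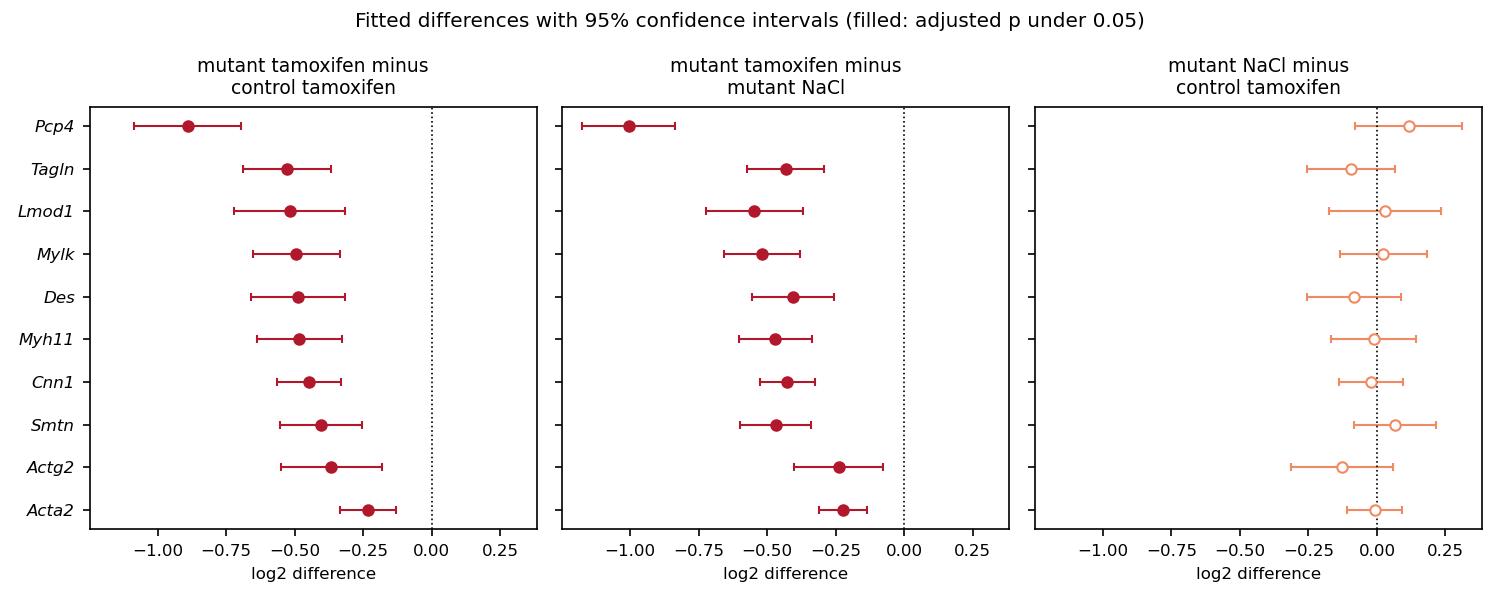
Fitted log2 difference of each of the 10 genes in the 3 comparisons, with 95% confidence intervals from limma; filled points have an adjusted p under 0.05. All intervals of both mutant tamoxifen comparisons lie below 0, with Pcp4 the farthest from it, and all 10 intervals of mutant NaCl minus control tamoxifen include 0.

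The mutant NaCl and control tamoxifen mice differ in both genotype and drug, so the effects of genotype and drug cannot be told apart here, and each group also stands in one of the comparisons above. None of the 10 genes passed between them with limma (0 of 10, and 0 of 10 at an unadjusted p under 0.05), and 0% of all genes did, although 1625 genes had an unadjusted p under 0.05. The log2 differences ran from -0.13 (Actg2) to 0.12 (Pcp4), with a median of -0.01 against -0.01 over all genes. A missed threshold does not show that the groups were alike: the 95% confidence intervals reached -0.31 for Actg2 and 0.31 for Pcp4. Actg2 read lower in every mutant NaCl array than in every control array, which 5.32% of genes did (limma, adjusted p = 0.715). Pcp4 read higher in every mutant NaCl array than in every control array, which 2.82% of genes did (limma, adjusted p = 0.747). For the other 8 genes the arrays overlapped. In order of level, mutant tamoxifen was the lowest of the 3 groups in all 10 genes, while the order of mutant NaCl and control, the neighbours above it, varied from gene to gene and no difference between them passed.

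The genes did not all fall by the same amount. To compare them without setting levels of different probes against each other, each gene was expressed per array as its log2 ratio to the mean of the other 9, relative to the control mean. For Pcp4 this ratio ran -0.57 to -0.20 in mutant tamoxifen, 0.14 to 0.26 in mutant NaCl and -0.09 to 0.06 in control, so the 3 groups were apart. For Acta2 it was 0.23 to 0.34 in mutant tamoxifen, -0.04 to 0.09 in mutant NaCl and -0.06 to 0.05 in control, so that Acta2 fell less than the rest in every mutant tamoxifen array. For Actg2 it was 0.05 to 0.19 in mutant tamoxifen, -0.23 to -0.03 in mutant NaCl and -0.09 to 0.05 in control. The lowest mutant tamoxifen ratio of Actg2 (0.0491) barely exceeded its highest control ratio (0.0489). In the other 7 genes the ratios of mutant tamoxifen and control arrays overlapped, though Smtn was above 0 in all 4 mutant tamoxifen arrays (0.004 to 0.18). These ratios are a description with no test. For every gene but Pcp4 the mean of the other 9 includes Pcp4, which fell most and so raises their mutant tamoxifen ratios. The small positive ratios of Smtn and Actg2 may not hold without it. Ratios with Pcp4 left out were not computed. The log2 levels of Acta2 (up to 13.74) lie near the top of the table, where array signals can flatten, and whether that bears on its smaller difference was not tested.

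**Figure D3:**
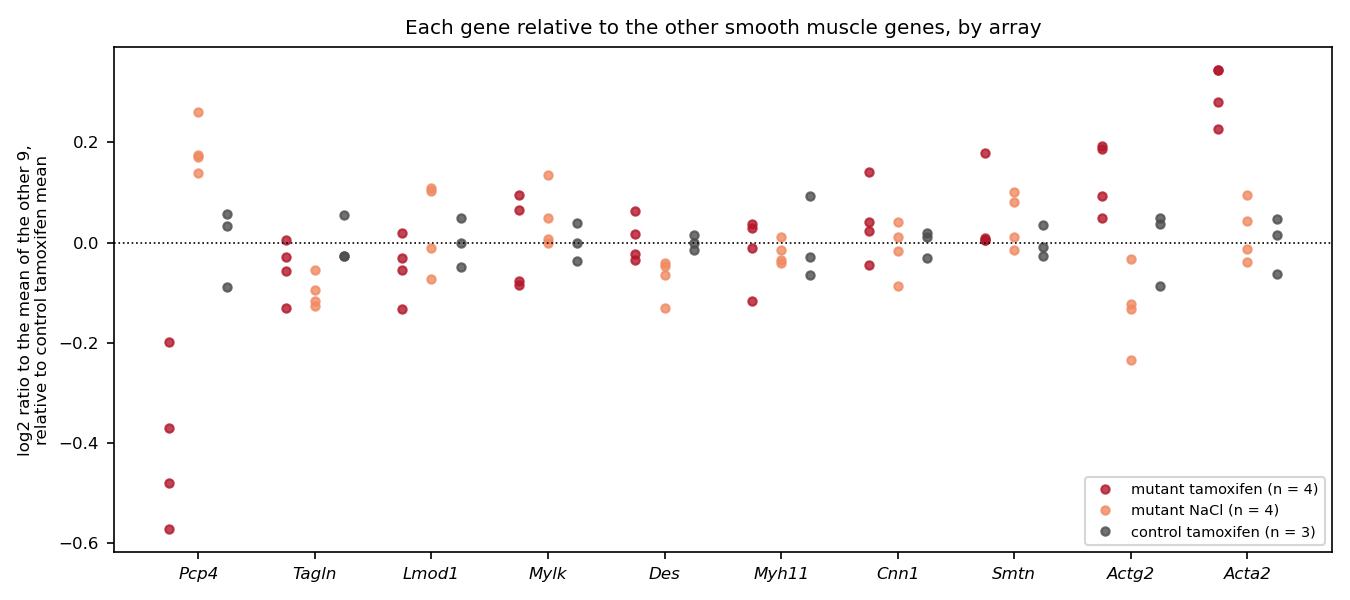
Log2 ratio of each gene to the mean of the other 9 genes in the same array, relative to the control tamoxifen mean; points are arrays of mutant tamoxifen (n = 4), mutant NaCl (n = 4) and control tamoxifen (n = 3), from left to right within a gene. Pcp4 lies below 0 in all 4 mutant tamoxifen arrays, and Acta2, Actg2 and, by less at its lowest, Smtn lie above 0 in all 4. The other genes have mutant tamoxifen arrays on both sides of 0. For every gene but Pcp4 the mean of the other 9 includes Pcp4, which raises the mutant tamoxifen ratios.

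The 10 genes also varied together around their group means, with the 3 groups pooled. After the group means were subtracted, the correlation between genes over the 11 arrays was above 0 in all 45 pairs, with a median of 0.70 and a range of 0.16 to 0.88. The 2 values of a pair come from the same array, so this is a description. In mutant NaCl all 10 genes lay below the group mean in replicate 1 and above it in replicate 4, the male. Their mean deviations, -0.14 and 0.13, were the largest of the 11 arrays. Correlations within each group alone were not computed. In mutant tamoxifen replicate 2 there was 1 gene above the group mean. Pcp4 followed the others least, with a mean correlation to them of 0.33, against 0.54 (Mylk) to 0.75 (Des) for the rest. Male minus female differences of the 10 genes were -0.04 to 0.15 on the log2 scale, and 0 of 10 passed the threshold with limma (1 of 10, Smtn, at an unadjusted p under 0.05). A group by sex term, added after seeing the data, passed in 0 of 10 genes for any of the 3 comparisons. At an unadjusted p under 0.05 it did so in 2 of 10, Mylk and Pcp4, for mutant tamoxifen against mutant NaCl, and in 0 of 10 for the others. This term rests on 1 male in each mutant group and 1 female control. A missed threshold here does not show that the sexes were alike. How many of all genes passed either sex term was not counted.

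Other genes of smooth muscle were read from lists chosen, like the 10 genes, with earlier results known. None of the counts below is a test of a list, and they stand beside the 11.8% of all genes called lower and 12.9% called higher against control. Against mutant NaCl these shares were 10.7% and 12.5%. Of 13 measured thin filament and actin partners, 9 fell against control and 0 rose (median log2 difference -0.35). Pdlim3, an actinin-associated LIM protein (log2 difference -0.62, adjusted p = 0.000682), Tns1, a tensin of cell-matrix contacts (log2 difference -0.57, adjusted p = 0.00163), Tpm2, a tropomyosin (log2 difference -0.56, adjusted p = 0.00241), and Csrp1, a LIM protein (log2 difference -0.33, adjusted p = 0.00141), had the smallest p. With mutant tamoxifen replicate 3 left out the count was 6 of 13. Of 12 genes of myosin light chains and their kinase-phosphatase control, 5 fell and 0 rose (median -0.13). Myl9, the regulatory light chain of smooth muscle (log2 difference -0.53, adjusted p = 0.000661), Ppp1r14a, or CPI-17, an inhibitor of myosin phosphatase (log2 difference -0.57, adjusted p = 0.000682), Myl6, the essential light chain (log2 difference -0.18, adjusted p = 0.00654), and Ppp1r12a, the targeting subunit of the phosphatase (log2 difference -0.27, adjusted p = 0.0103), were among them. Rhoa, the upstream GTPase, differed by 0.03 (adjusted p = 0.533). Without mutant tamoxifen replicate 3 or control replicate 2 this count was 3 or 2 of 12, and Ppp1r12a lost its call in both cases (-0.23 and -0.24, adjusted p = 0.0763 and 0.0877), as Myl6 did without control replicate 2 (-0.15, adjusted p = 0.0649). In this list 1 gene rose with mutant tamoxifen replicate 1 left out.

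Genes that anchor the filaments to the membrane and matrix were lower too. Of 16 genes of the intermediate filament, dense plaque and dystrophin complex, 14 fell against control and 0 rose (median -0.40). Itga8, an integrin of smooth muscle cells, read 7.81, 8.01, 7.94 and 8.35 in the arrays labelled mutant tamoxifen, against 9.38, 8.87 and 9.19 in control and 8.96, 9.01, 9.06 and 9.18 in mutant NaCl. It was 2.08-fold lower than in control (log2 difference -1.06, adjusted p = 0.000723), more than any of the 10 contractile genes. Synm, which encodes synemin, a filament protein that pairs with desmin, was 1.88-fold lower (log2 difference -0.91, adjusted p = 0.000791). Cav1 (log2 difference -0.62, adjusted p = 0.000949) and Cavin1 (log2 difference -0.54, adjusted p = 0.00423), which build caveolae, fell as well. Vim and Sgcb did not pass (log2 differences -0.18 and 0.10). The count was 5 of 16 without mutant tamoxifen replicate 3 and 9 of 16 without control replicate 2, when 12.6% and 15.2% of all genes were called in either direction, against 24.6% with all arrays. Against mutant NaCl 14 of 16 fell, and 12 to 15 with any 1 array left out.

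Genes of calcium handling moved both ways. Of 15 measured, 7 fell and 2 rose against control (median -0.19), or 3 and 1 without mutant tamoxifen replicate 3, and 3 or 4 fell without control replicate 2 or 1. Casq2, which stores calcium in the sarcoplasmic reticulum, read 6.69, 7.09, 6.44 and 7.01 in mutant tamoxifen, against 8.20, 7.86 and 8.22 in control and 8.02, 7.73, 7.77 and 8.17 in mutant NaCl, and was 2.4-fold lower than in control (log2 difference -1.26, adjusted p = 0.000998). Pln, or phospholamban, which restrains the calcium pump (log2 difference -0.69, adjusted p = 0.000484), and Kcnmb1, the β subunit of the large-conductance potassium channel (log2 difference -0.60, adjusted p = 0.0011), fell too. Gja1, the gap junction protein connexin 43, rose (log2 difference 0.53, adjusted p = 0.00206), as did the pump gene Atp2a2 (0.20), and epithelial and other cells express both. Of 10 receptors and cyclic nucleotide genes, 6 fell and 0 rose (median -0.46), or 2 without mutant tamoxifen replicate 3. Gucy1a1, a subunit of the nitric oxide receptor (log2 difference -0.65, adjusted p = 0.00178), Prkg1, the cGMP-dependent kinase (log2 difference -0.55, adjusted p = 0.0023), Agtr1a, an angiotensin receptor (log2 difference -0.50, adjusted p = 0.00757), and Chrm2, a muscarinic receptor (log2 difference -0.54, adjusted p = 0.0126), had the smallest p. Agtr1a and Chrm2 were not past the threshold without mutant tamoxifen replicate 3 (-0.39 and -0.41, adjusted p = 0.0659 and 0.0986), nor Chrm2 without control replicate 2 (-0.57, adjusted p = 0.0553).

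The factors that drive the programme showed fewer calls. Of 10 transcription factors 2 fell and 0 rose against control (median -0.14), with limma. Myocd, which encodes myocardin, was lower (log2 difference -0.44, adjusted p = 0.0407), but lost its call in 11 of 25 other settings, its adjusted p running from 0.00955 to 0.275. Without mutant tamoxifen replicate 3 its difference was -0.22, and without mutant tamoxifen replicate 2, control replicate 1 or 2, or mutant NaCl replicate 1 or 3 it was -0.45 to -0.38, in none of these cases past the threshold. Foxf2, a forkhead factor of gut mesenchyme, was lower (log2 difference -0.26, adjusted p = 0.0126), and not past the threshold without mutant tamoxifen replicate 3 or control replicate 2 (-0.25 and -0.28, adjusted p = 0.0651 and 0.0561). Leaving out either of those arrays left 0 of 10 factors past the threshold. Mrtfb and Nkx2-3 did not pass (log2 differences -0.21 and -0.17, adjusted p = 0.129 and 0.209), nor did Srf (-0.10, adjusted p = 0.327). Mrtfb depended on the choice of cluster: with the clusters of a gene averaged it was -0.24 against control and -0.24 against mutant NaCl, past the threshold in both (limma, adjusted p = 0.0177 and 0.00917). Against mutant NaCl, Myocd (log2 difference -0.53) and Foxf2 (-0.24) were lower, with adjusted p = 0.00952 and 0.0088.

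Of 11 measured non-muscle counterparts of the contractile genes, 4 rose, 1 fell and 6 did not pass against control, with a median of 0.02. Tpm3, a tropomyosin (log2 difference 0.46, adjusted p = 0.00151), Tpm4, another (log2 difference 0.37, adjusted p = 0.007), and Tagln2, the transgelin of other cells (log2 difference 0.34, adjusted p = 0.0092), rose, as did the non-muscle myosin gene Myh9 (log2 difference 0.22). Cnn3, the acidic calponin, fell (log2 difference -0.31, adjusted p = 0.00462). Actb, which encodes cytoplasmic β-actin, differed by 0.02 (adjusted p = 0.592). Without mutant tamoxifen replicate 3, 1 of 11 rose and 1 fell, with Tpm4 and Tagln2 at 0.32 and 0.25 (adjusted p = 0.0579 and 0.0777), while against mutant NaCl 4 rose with any 1 array left out. In mutant NaCl against control, 0 genes passed in any of these lists with limma.

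**Figure D4:**
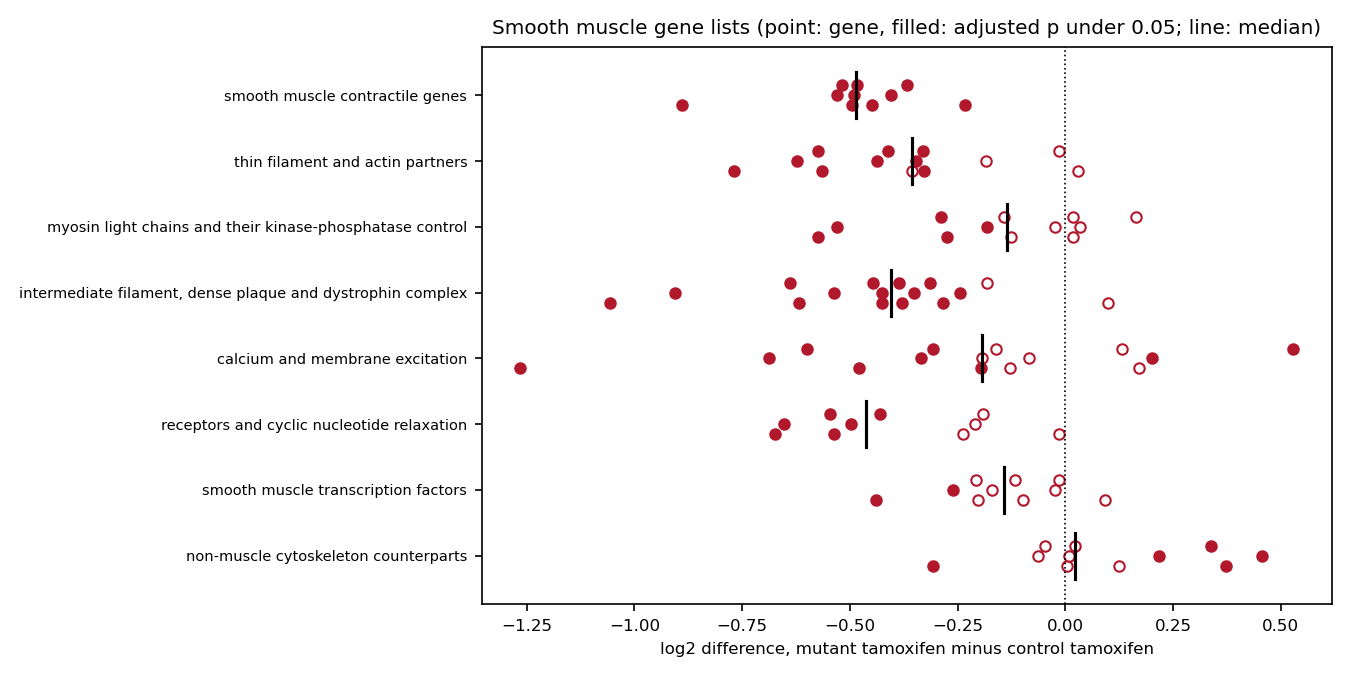
Log2 difference, mutant tamoxifen minus control tamoxifen, of every measured gene in the 10 contractile genes and 7 further lists; filled points have an adjusted p under 0.05 and the line is the median of the list. The contractile genes all lie left of 0, the anchoring and receptor lists mostly do, and the non-muscle list spreads to both sides.

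The genes with the pattern most like the mean of the 10 contractile genes were ranked by Pearson correlation of their log2 levels over the 11 arrays. Synm came first (r = 0.995), followed by Ckb, a creatine kinase, Bves, a membrane protein of muscle, Tns1, Dmpk, the myotonic dystrophy kinase, Grina, Fndc1, Pdlim3, Smarcd3, a chromatin remodelling subunit, and Marveld1 (r = 0.987). These correlations are large for any gene that separates mutant tamoxifen from the other 7 arrays, so the deviations from group means were compared as well. There r was 0.857 (Grina) to 0.983 (Dmpk) over the same 11 arrays, a range that the choice by likeness over those arrays fixes in part. Synm, Tns1 and Pdlim3 are on the lists above. Against control the 10 genes had log2 differences of -0.91 (Synm) to -0.49 (Marveld1), which the choice by likeness fixes in part.

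Markers of the other cells that a rectal sample can hold were read in the same arrays, as mean log2 levels of each list. All 3 markers of interstitial cells of Cajal, the pacemaker cells of gut muscle, fell against control (Kit -0.42, Ano1 -0.23 and Etv1 -0.35 on the log2 scale), with means of 9.61 to 9.78 in mutant tamoxifen, 9.95 to 10.08 in mutant NaCl and 9.93 to 10.28 in control. Without mutant tamoxifen replicate 3 this was 0 of 3, and without control replicate 1 it was 1 of 3. Of 12 enteric neuron markers 7 fell and 0 rose, among them the neuronal nitric oxide synthase gene Nos1 (log2 difference -0.57, adjusted p = 0.000956), or 4 of 12 without mutant tamoxifen replicate 3, with means of 7.68 to 7.81 in mutant tamoxifen, 7.99 to 8.09 in mutant NaCl and 8.03 to 8.12 in control. Of 5 enteric glia markers 1 fell, with means of 6.98 to 7.16 in mutant tamoxifen, 7.15 to 7.25 in mutant NaCl and 7.16 to 7.37 in control, and none did without mutant tamoxifen replicate 3 or control replicate 1 or 2. Against mutant NaCl, 3 of 3 interstitial cell markers fell, or 0 without mutant tamoxifen replicate 3 and 1 without mutant tamoxifen replicate 2 or 4 or mutant NaCl replicate 1, 2 or 3. In that comparison 8 of 12 neuron markers fell and 1 rose, Ret. Without mutant tamoxifen replicate 2 or mutant NaCl replicate 3, 5 neuron markers fell. With limma 0 of 5 glia markers passed there (1 of 5 at an unadjusted p under 0.05, beside 6918 of all 19944 genes). The part of these cells in the muscle result was not tested.

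With limma 0 of 9 mural cell markers passed against control, with means of 8.74 to 8.89 in mutant tamoxifen, 8.81 to 8.98 in mutant NaCl and 8.81 to 9.01 in control, and the pericyte gene Rgs5 differed by -0.24 (adjusted p = 0.0766). With limma 0 of 9 endothelial markers passed, also with any 1 array left out, with means of 9.08 to 9.25 in mutant tamoxifen, 9.05 to 9.20 in mutant NaCl and 9.03 to 9.35 in control. Of the mural markers 3 fell without mutant tamoxifen replicate 4, 1 fell without control replicate 3 or without mutant NaCl replicate 1, and 2 rose without control replicate 1. Against mutant NaCl, 2 of 9 mural markers fell and 0 rose, and 2 to 3 fell with any 1 array left out. They were Rgs5 (limma, log2 difference -0.40, adjusted p = 0.00474), at 9.78 to 10.14 in mutant tamoxifen and 10.33 to 10.49 in mutant NaCl, and the proteoglycan gene Cspg4 (limma, log2 difference -0.49, adjusted p = 0.00825), at 8.50 to 8.78 in mutant tamoxifen and 8.89 to 9.35 in mutant NaCl, so neither overlapped. The part of mural cells in the muscle result was not tested. Against control, at an unadjusted p under 0.05 there were 4 of 9 mural and 0 of 9 endothelial markers, beside 7435 of all 19944 genes. Of 11 fibroblast markers 2 rose, Pdgfra and Pdpn, with means of 10.89 to 10.95 in mutant tamoxifen, 10.58 to 10.94 in mutant NaCl and 10.77 to 10.93 in control. The fibroblast count was 0 without mutant tamoxifen replicate 3 or control replicate 2, 1 without mutant tamoxifen replicate 4 or control replicate 3, and 4 without mutant NaCl replicate 1. Against mutant NaCl the fibroblast markers went both ways, as 5 of 11 rose (4 to 5 with 1 array left out) and 3 fell (2 to 3). The collagen genes Col1a1 (0.51), Col1a2 (0.43) and Col3a1 (0.37), with Pdgfra (0.41) and Pdpn (0.51), rose on the log2 scale, and the matrix genes Lum (-0.43), Dpt (-0.30) and Fbln1 (-0.34) fell. Of 12 intestinal epithelium markers 3 rose against control, the keratin genes Krt18, Krt19 and Krt20, with means of 12.19 to 12.32 in mutant tamoxifen, 12.06 to 12.09 in mutant NaCl and 12.00 to 12.13 in control. Of 9 leukocyte markers 4 rose against control, or 2 without mutant tamoxifen replicate 3, with means of 8.81 to 8.97 in mutant tamoxifen, 8.33 to 8.94 in mutant NaCl and 8.42 to 8.69 in control. Against mutant NaCl, 4 of 9 leukocyte markers and 5 of 12 epithelial markers rose, where 12.5% of all genes were called higher. The epithelial count was 2 without mutant tamoxifen replicate 3 and 3 without mutant NaCl replicate 2, 3 or 4. The leukocyte markers went both ways in both comparisons, and 0 passed as lower in either. Their log2 differences were -0.35 to 0.91 against control and -0.48 to 0.91 against mutant NaCl.

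Striated muscle of the anal sphincter is a further tissue near the rectum. Its 11 markers had means of 7.39 to 7.96 in mutant tamoxifen, 7.55 to 8.36 in mutant NaCl and 7.69 to 8.99 in control, and control replicate 3 was the highest array. Of these markers 1 fell against control, the muscle creatine kinase gene Ckm (log2 difference -1.06, adjusted p = 0.0181), and 0 did without mutant tamoxifen replicate 3. The log2 differences of all 11 ran from -1.06 to -0.20 against control (median -0.41). Against mutant NaCl they ran from -0.76 to 0.06 (median -0.11). The fast myosin gene Myh4 read 5.96 to 5.99 in mutant tamoxifen, 5.92 to 6.23 in mutant NaCl and 5.96 to 7.08 in control. Squamous epithelium markers, which mark the anal canal, had means of 8.19 to 9.79 in mutant tamoxifen, 8.30 to 9.51 in mutant NaCl and 6.52 to 9.68 in control. With limma 0 of 9 squamous markers passed against control, and 5 of 9 rose without control replicate 2. At an unadjusted p under 0.05 there were 2 of 9, beside 7435 of all 19944 genes. The log2 differences of all 9 squamous markers were above 0, at 0.13 to 1.53 against control (median 1.1). Against mutant NaCl they were 0.07 to 0.82 (median 0.25). The part of both tissues in the muscle result was not tested. Their marker means were added to the fit, but these do not measure how much smooth muscle a sample held. With the mean of the striated markers as a term in the fit, all 10 contractile genes passed against control (median -0.49), and 9 of 10 passed against mutant NaCl (all but Actg2, -0.24, adjusted p = 0.0602). With the mean of the squamous markers as a term, all 10 passed in both comparisons (medians -0.48 and -0.45). Both terms were chosen after seeing the data.

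**Figure D5:**
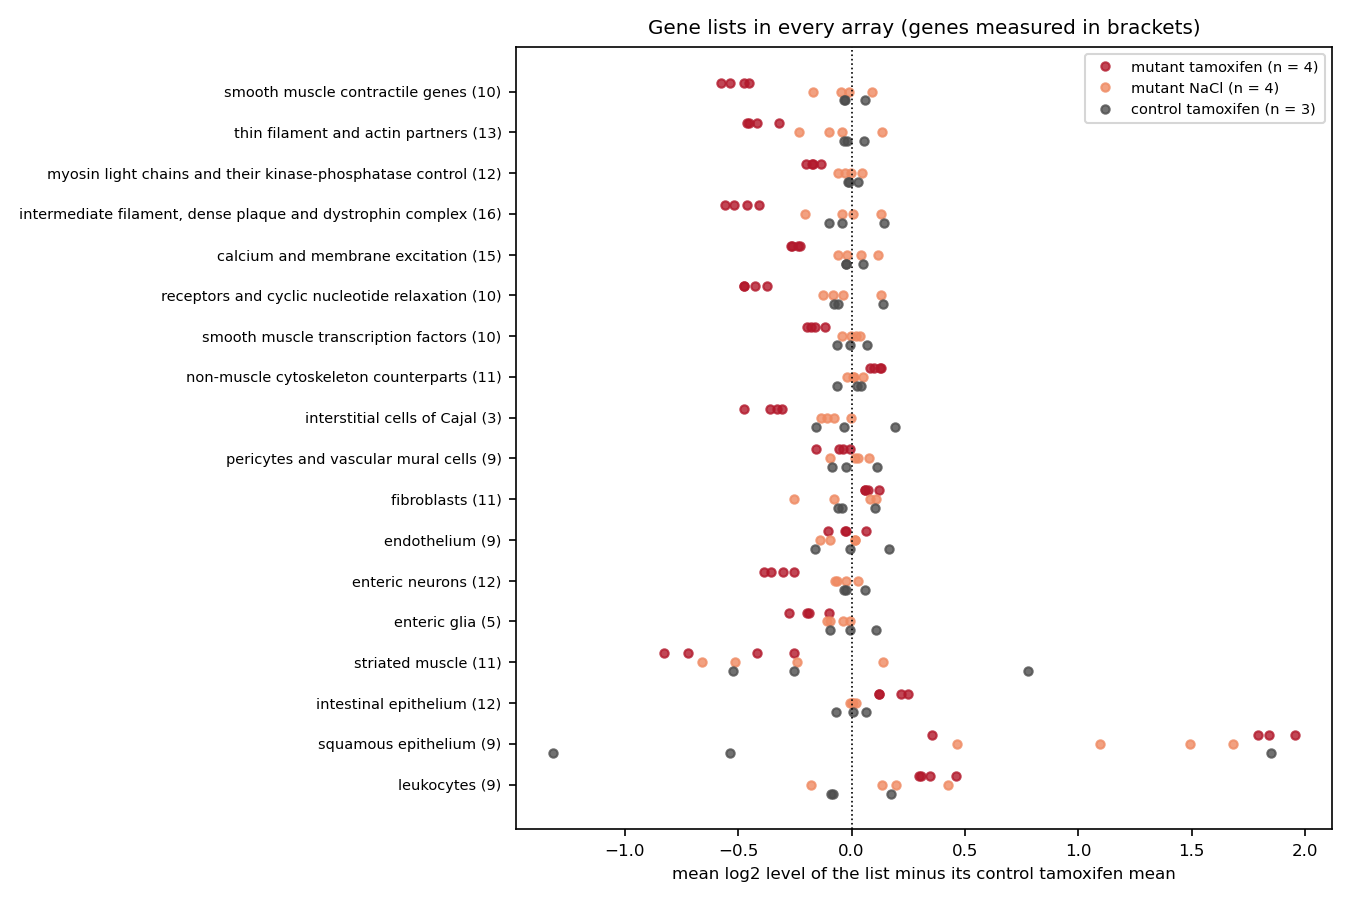
Mean log2 level of each gene list in every array, minus the mean of that list over the control tamoxifen arrays; points are arrays of mutant tamoxifen (n = 4), mutant NaCl (n = 4) and control tamoxifen (n = 3), from top to bottom within a list, and the number of genes measured is in brackets. The mutant tamoxifen points are left of all others for the contractile genes, for the 6 smooth muscle lists under them and for the interstitial cell and neuron lists, and mix with the others for mural cells and endothelium.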

How the data were processed

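RNA from rectal mucosa of 11 mice was read on 1 array each. The authors deposited log2 values, 1 per transcript cluster and array, made per the labels with RMA in Expression Console, version 1.1 per the series design text. The submitters' processing notes also name Partek, with no role. A genome build is not given in the sources used here. Of 35556 clusters, 21797 had 1 gene symbol in the platform annotation, with old symbols updated from RefSeq (GRCm38.p6, names alone), and per gene the cluster of highest mean level was kept, leaving 19944 genes. Groups came from genotype and treatment in the labels. All arrays entered 1 limma fit (version 3.58.1, R 4.3.3) with a sex term and a variance trend, two-sided, adjusted over all genes, and the fit was tested on simulated data. Named genes were the 10 members, per pathway list at most the 4 with the smallest p against control, and the 10 with the most similar pattern, and a few list genes named beside these were chosen after their values were seen. The members and lists were chosen with earlier results of these data known. Alternatives changed the sex term, arrays, filters, normalisation, variance model and clusters, or left out each array.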

Additional observations from a re-analysis of the deposited data

Results flagged for a closer look

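The Acta2 log2 level of mutant tamoxifen replicate 4, 13.54, stood apart from the 3 other arrays of its group at 13.40 to 13.42, with a gap of 0.854 of the range of the group, above the 95% critical value of Dixon's test. It was the only such case among 22 groups of 4 arrays examined, the 10 genes and their mean in both mutant groups, and chance alone gives about 1 in 20. The array stayed below every array of the other groups, and without it Acta2 differed from control by -0.26 (limma, adjusted p = 0.00162).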

How the results depend on the processing

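The 3 comparisons were repeated under 25 other settings. The median log2 difference of the 10 contractile genes stayed between -0.51 and -0.41 for mutant tamoxifen against control and between -0.49 and -0.42 against mutant NaCl, and 8 to 10 and 9 to 10 of the 10 genes passed. No gene of the 10 changed direction in either of these comparisons. The losses were Actg2, in 3 and 12 settings, and Acta2 against control with the female arrays alone (-0.21, adjusted p = 0.0847 with limma), a fit with 1 control array. The count of all genes called against control moved more: 4915 with all arrays, 1385 in the female arrays alone, 3173 with the squamous marker term, and 2517 to 4685 with 1 array left out, the lowest without mutant tamoxifen replicate 3. The female fit and the fits without 1 array use fewer arrays. Leaving out mutant tamoxifen replicate 3 (2517 genes called) or control replicate 2 (3031) also left that group with 1 sex. The sex term stayed in these fits. Leaving out mutant NaCl replicate 4 did the same to its group. How far this bears on the lost calls was not tested, nor was the cause for the squamous term. For mutant NaCl against control the count was 0, and 3 with only the arrays of those groups, 1 with the lowest 50% of genes left out, with quantile normalisation again, with array weights or with the squamous marker term, and 0 to 3 with 1 array left out. None of the 10 genes passed there in any setting. Centring arrays on their medians moved them by -0.0351 to 0.0198 log2 units. No paired analysis was possible because the labels give no replicate numbers that the groups share. The number of arrays limits the precision, and RMA values carry no measure of signal over background.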
